A study of Arabidopsis thaliana with 12 samples.

Results

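Pre-mRNA splicing was compared between unstressed seedlings of 2 natural accessions of Arabidopsis thaliana, Kn-0 and Col-0, the reference strain. The comparison took the 3 Kn-0 mock libraries against the 3 Col-0 mock libraries, which are 6 of the 12 libraries of the series. Seedlings grew on filter paper under continuous light for 4 days and were then moved to control medium for 3 h (mock). The other 6 libraries, 3 of Kn-0 and 3 of Col-0, came from seedlings moved for 3 h to medium with 5 µM abscisic acid (ABA), a stress hormone, and serve here as a second set of libraries for the same pair of accessions. Polyadenylated RNA of whole seedlings was sequenced, and the study's design text calls the replicates biological. No allele or transgene is named for either accession.

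In plants most introns are removed completely, and the most common alternative is to keep one in the messenger RNA, which is called intron retention. Other choices are to skip an exon or to use a different 5′ splice site (donor) or 3′ splice site (acceptor). The spliceosome reads short sequences at the exon borders, of which the intron's first bases GT and last bases AG are nearly constant, and serine/arginine-rich (SR) proteins help it to choose among sites. A retained intron or shifted frame often brings a premature stop codon into the transcript.

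The deposited tables list each event with its junction reads and its inclusion level in every library. The inclusion level is the share of transcripts, corrected for length, that keep the intron or exon, or that use the splice site giving the longer exon, and it runs from 0 to 1. There were 196149 events in the table of Kn-0 and 192386 events in that of Col-0. The tables use different coordinates, so events were paired by type, gene, strand and the spacing of their exon boundaries, which gave 55233 pairs, or 28.2% of Kn-0 and 28.7% of Col-0 events. Events present in 1 table only, or whose exons differ in length between the accessions, were not compared. Tests were run on the 15959 pairs, in 5690 genes, that had 10 or more junction reads in each of the 6 libraries and averaged between 0.02 and 0.98 in inclusion. In these, a library had 5598998 to 5684857 junction reads in Kn-0 mock and 5386061 to 5664021 in Col-0 mock. Accession and the coordinates on which its reads were counted cannot be told apart, because each accession has its own table. Libraries are numbered below by their place in the deposited cells, which is not tied to the replicate numbers of the labels.

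An event was called when its log-odds of inclusion differed at an adjusted p under 0.05 (limma, Benjamini-Hochberg over all tested events) and its mean inclusion level differed by at least 0.1. In Kn-0 mock against Col-0 mock, 281 of 15959 events were called, or 1.76%. Inclusion was higher in Kn-0 for 172 events (1.08%) and lower for 109 (0.683%). The calls lay in 197 of the 5690 genes (3.46%), 152 of which had a single called event and 45 had 2 or more. At an adjusted p under 0.05 with no minimum difference, 665 events passed (4.17%). The levels of the 3 Kn-0 and the 3 Col-0 libraries did not overlap in 278 of the called events, against 2884 of all tested events (18.1%). Differences were mostly partial. Of the calls, 110 had a difference of at least 0.2 and 29 of at least 0.5, and in 59 events of 46 genes the majority form was not the same in the 2 accessions.

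**Figure D1:**
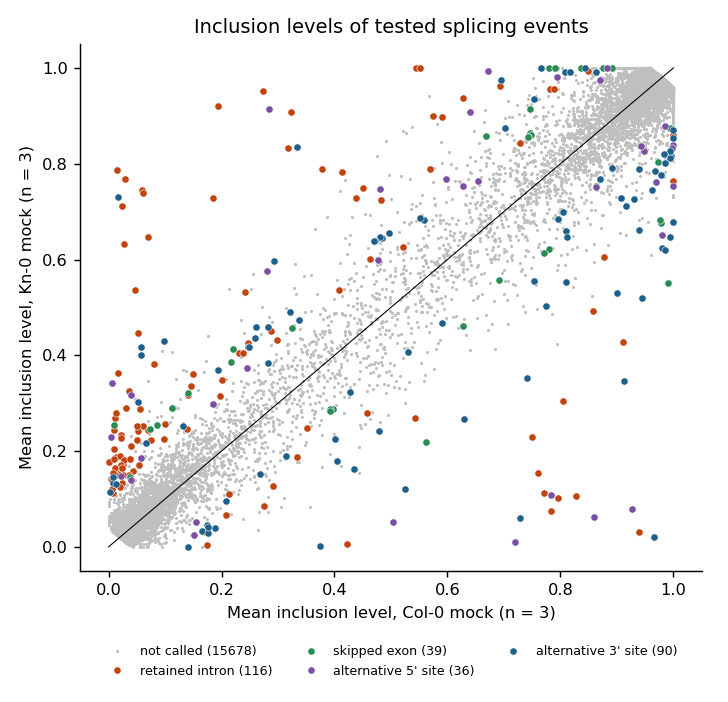
Mean inclusion level of each of the 15959 tested events in Kn-0 mock (vertical axis, 3 libraries) and Col-0 mock (horizontal axis, 3 libraries), with the 281 called events coloured by type and the diagonal marking equal levels. Most events lie along the diagonal, and called retained introns lie mostly above it.

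Retained introns made up the largest group of calls and leaned towards Kn-0. Of 7906 tested introns, 116 were called (1.47%), 92 with more retention in Kn-0 and 24 with less. Skipped exons had 39 calls of 1039 (3.75%), with 23 higher and 16 lower in Kn-0. Alternative 5′ sites had 36 calls of 2132 (1.69%), with 20 higher and 16 lower. Alternative 3′ sites had 90 calls of 4882 (1.84%), with 37 higher and 53 lower. No test of the difference between event types was made.

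The lean of retained introns was small in size and present in introns that were not called. Of all tested introns, 60.5% had a higher mean level in Kn-0. The median retention level was 0.0476, 0.0490 and 0.0498 in the 3 Kn-0 libraries, against 0.0437, 0.0432 and 0.0437 in the 3 Col-0 libraries. The lowest Kn-0 library lay above the highest Col-0 library, and the difference of means was 0.00525 (exact two-sided permutation test, p = 0.1, the smallest that 3 against 3 libraries allow). Without the filter on mean inclusion the difference was 0.00231. In the ABA libraries the same medians were 0.0457, 0.0496 and 0.0490 in Kn-0, against 0.0430, 0.0423 and 0.0440 in Col-0, with 60.2% of introns higher in Kn-0, and calls there split into 82 higher and 23 lower. When introns that were also tested in the ABA libraries were sorted by their mean level there, the share higher in Kn-0 mock was 61.4% of 3745 introns at up to 0.05, 69.7% of 1513 between 0.05 and 0.2, and 63.4% of 292 between 0.2 and 0.5. It was 50.4% of the 1320 introns above 0.5, close to even. Events also had slightly more junction reads in Kn-0, with a median ratio of 1.07 over tested introns, and the part of this in the result was not tested.

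At alternative 3′ sites the libraries also stood apart, in the other direction. The median inclusion level was 0.752 ± 0.0015 in Kn-0 mock and 0.765 ± 0.0013 in Col-0 mock (SD, n = 3 each; difference -0.0128, exact two-sided permutation test, p = 0.1). The groups did not overlap in the ABA libraries either, at 0.739 to 0.746 in Kn-0 and 0.752 to 0.758 in Col-0. Of these sites, 46.8% had a higher mean level in Kn-0 mock, and without the inclusion filter the difference of medians was -0.000688. Skipped exons had a median inclusion level of 0.706 ± 0.00353 in Kn-0 mock and 0.711 ± 0.00359 in Col-0 mock (SD, n = 3 each; exact two-sided permutation test, p = 0.2). Event by event they leaned the other way, with 57.7% of exons higher in Kn-0 mock and 61.3% in ABA, a median event difference of 0.00555, and 75 exons higher against 32 lower at an adjusted p under 0.05 (limma). Alternative 5′ sites had a median level of 0.238 ± 0.000959 in Kn-0 mock and 0.246 ± 0.00684 in Col-0 mock (SD, n = 3 each; exact p = 0.1), and 50.6% of them were higher in Kn-0. The differences of medians for skipped exons and 5′ sites changed sign under other filters, with 0.0000858 for exons without the inclusion filter and 0.00474 for 5′ sites at 20 reads.

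**Figure D2:**
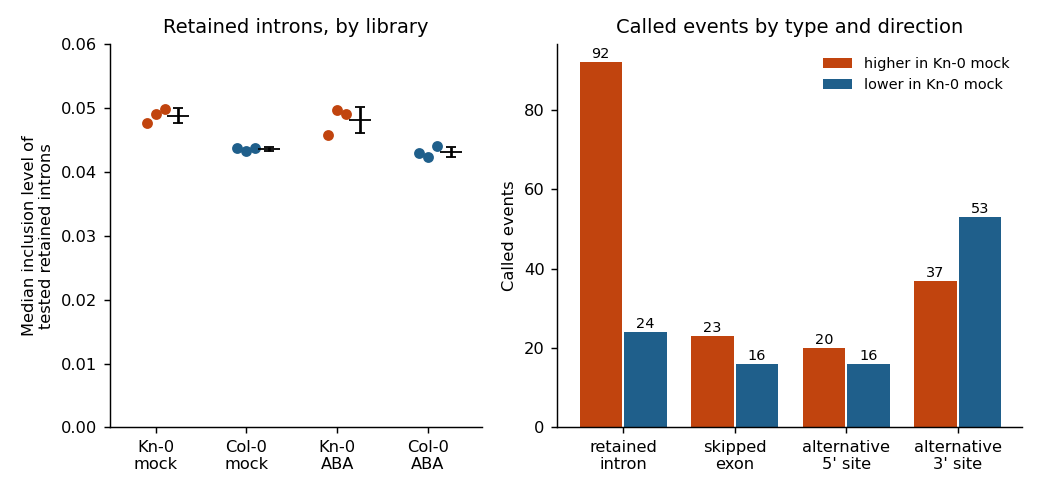
Left, median inclusion level over all tested retained introns in each library (points), with the mean and SD of 3 libraries beside them (bar), for Kn-0 and Col-0 in mock and ABA. Right, number of called mock events of each type with a higher or lower inclusion level in Kn-0; retained introns split 92 to 24.

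The reference sequence of some of the introns that differed most is shown here to let the splice sites be seen. All are from the Col-0 genome (RefSeq, TAIR10.1), 5′ to 3′ on the gene's strand, and the Kn-0 sequence was not used here. Capitals mark the first and last bases of each intron, and in REV1 also a second donor inside it.
BGLU7, chr3:23213118-23213185, plus strand: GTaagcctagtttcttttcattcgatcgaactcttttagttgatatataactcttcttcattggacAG
NUC-L1, chr1:18100628-18100724, plus strand: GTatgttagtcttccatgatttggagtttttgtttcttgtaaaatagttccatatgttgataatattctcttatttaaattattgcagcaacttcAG
VAB2, chr4:18014797-18014902, minus strand: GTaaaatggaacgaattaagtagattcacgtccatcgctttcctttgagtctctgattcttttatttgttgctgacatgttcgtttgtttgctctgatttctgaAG
MAF2, chr5:25985003-25985088, plus strand: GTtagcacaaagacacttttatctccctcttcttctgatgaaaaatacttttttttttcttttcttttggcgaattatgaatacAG
REV1, chr5:18056574-18056667, plus strand: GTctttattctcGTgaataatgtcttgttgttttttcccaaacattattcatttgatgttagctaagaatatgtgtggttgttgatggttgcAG
LIG6, chr1:24890529-24890633, plus strand: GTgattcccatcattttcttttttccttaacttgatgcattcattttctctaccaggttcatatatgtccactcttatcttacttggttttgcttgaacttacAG
All 6 introns lie between the outermost start and stop codons over all RefSeq transcripts of their gene. For VAB2, no RefSeq transcript that splices out the intron has coding sequence on both sides of it. All 6 introns begin with GT and end with AG in the reference.

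Among introns kept more often in Kn-0, BGLU7 (AT3G62740), a beta-glucosidase, changed most among genes with a symbol. The intron of 68 bases printed above had retention levels of 0.743, 0.787 and 0.777 in the Kn-0 libraries, against 0.0501, 0 and 0.0346 in the Col-0 libraries. The difference was 0.741 (adjusted p = 3.9e-09, limma). All 5 tested introns of the gene were called, with mean levels of 0.536 to 0.769 in Kn-0 and 0.0234 to 0.0610 in Col-0, so the difference ran through every tested intron of the gene. Each of these introns holds an in-frame stop codon in the reference. Junction reads of the printed intron averaged 164 per library in Kn-0 and 47 in Col-0, and over the 5 introns Kn-0 had 2.72 to 3.67 times as many, whose part in the result was not tested. The gene has near relatives in the genome, and reads could be split between copies. BGLU8 (AT3G62750), another beta-glucosidase, had 2 of 8 tested events called, with differences of -0.257 and 0.271. Its reads averaged 39 in Kn-0 and 104 in Col-0 at the called intron, and 34 and 49 at the called acceptor. Sharing of reads between these genes was not tested.

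NUC-L1 (AT1G48920), a nucleolin of the nucleolus where ribosomal RNA is made, had an intron of 97 bases retained at 0.941, 0.944 and 0.879 in Kn-0, against 0.172, 0.278 and 0.129 in Col-0 (difference 0.728, adjusted p = 4.7e-12, limma). This intron is not spliced out in any RefSeq transcript, and no RefSeq exon spans it either. Neither form of the event is annotated, and whether its inclusion reads come from other exon borders was not tested. Junction reads of the event averaged 397 per library in Kn-0 and 29.3 in Col-0. VAB2 (AT4G38510), subunit B of the vacuolar proton pump, had its 106-base intron retained at 0.774, 0.627 and 0.499 in Kn-0, against 0.0184, 0.0333 and 0.0302 in Col-0 (difference 0.606, adjusted p = 2.4e-14, limma). Here the reads averaged 39.3 in Kn-0 and 776 in Col-0, so the high Kn-0 level rests on few reads. The groups were far apart in both genes, and the part that unequal read numbers have in them was not tested.

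DJ1A (AT3G14990), a member of the DJ-1 family, and ckl8 (AT5G43320), a casein kinase I-like protein, had no spliced read at these introns in Kn-0. DJ1A had a level of 1 in every Kn-0 library and 0.528, 0.543 and 0.581 in Col-0 (difference 0.449, adjusted p = 5.1e-05, limma). In Kn-0, 0 of 172 junction reads were spliced, which allows a share of up to 1.74% for counting error alone. Neither form of the DJ1A event is annotated in RefSeq. For ckl8 the level was 1 in every Kn-0 library and 0.537, 0.554 and 0.541 in Col-0 (difference 0.456, adjusted p = 0.0025, limma), with 0 of 61 reads spliced in Kn-0, which allows up to 4.92%. Both lost their calls under both dispersion models added as alternatives, at adjusted p of 0.071 and 0.088 for DJ1A and 0.211 and 0.255 for ckl8.

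Several genes had all or most of their tested introns called with more retention in Kn-0. AT5G09380, annotated as the RPC4 subunit of RNA polymerase III, had 4 of 4 introns called, with mean levels of 0.187 to 0.224 in Kn-0 and 0.0139 to 0.0751 in Col-0. PDIL5-4 (AT4G27080), a protein disulfide isomerase-like protein, had 3 of 3 called, at 0.121 to 0.151 in Kn-0 and 0.00545 to 0.0248 in Col-0. EMB2771 (AT5G05560), annotated as an E3 ubiquitin ligase, had 3 of 4 called, at 0.227 to 0.280 in Kn-0 and 0.00908 to 0.0214 in Col-0. AT4G17910 and AT1G79640 each had 3 of 3 called, all higher in Kn-0. At the called introns, Kn-0 had 1.82 to 2.32 times the junction reads of Col-0 in AT5G09380 and 1.86 to 1.94 times in PDIL5-4. The ratio was 1.92 to 2.21 in EMB2771, 1.84 to 2.01 in AT1G79640 and 1.11 to 1.24 in AT4G17910. Its median over all tested introns was 1.07, and its part in the result was not tested. These genes, apart from MAF2 and BGLU7, were chosen after their values were seen. In all 7 genes with at least 3 called introns, every called intron was higher in Kn-0.

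The opposite direction was led by a repair gene. REV1 (AT5G44750), a DNA polymerase that copies past damaged bases, kept its 94-base intron at 0.0705, 0.0206 and 0 in Kn-0, against 0.973, 0.917 and 0.926 in Col-0. The difference of -0.908 was the largest of all retained introns tested (adjusted p = 2.1e-09, limma), and in the reference the intron holds an in-frame stop codon. The same intron has a second donor 12 bases downstream, seen as GT inside the sequence above. Use of that downstream donor was 0, 0.0327 and 0 in Kn-0, against 0.856, 0.657 and 0.646 in Col-0 (difference -0.709, adjusted p = 1e-05, limma). Both events share the intron and its spliced reads, so they are not independent. Reads of the retention event averaged 20.7 in Kn-0 and 246 in Col-0.

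LIG6 (AT1G66730), a DNA ligase, had retention levels of 0.0093, 0.0065 and 0.0053 in Kn-0, against 0.390, 0.448 and 0.428 in Col-0 (difference -0.415, adjusted p = 1.2e-07, limma). Its intron also holds an in-frame stop codon. VAD1 (AT1G02120), a GRAM domain protein that limits cell death, had 0.474, 0.143 and 0.300 in Kn-0, against 0.714, 0.783 and 0.917 in Col-0 (difference -0.499, adjusted p = 0.004, limma). It had 13 to 20 reads per library in Kn-0 and 23 to 42 in Col-0, and without Kn-0 library 2 the call was lost (difference -0.418, adjusted p = 0.083). FYPP3 (AT3G19980), a protein phosphatase catalytic subunit, and BGAL12 (AT4G26140), a beta-galactosidase, had weaker calls, with differences of -0.273 (adjusted p = 0.044) and -0.147 (adjusted p = 0.014, limma). For FYPP3 the call was lost without Kn-0 library 2 or 3 or any 1 of the Col-0 libraries (adjusted p of 0.084 to 0.27). For BGAL12 it was lost without Kn-0 library 2 or 3 or Col-0 library 1 (adjusted p of 0.075 to 0.22). Neither form of the VAD1 event or of the FYPP3 event is annotated in RefSeq.

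At alternative 3′ sites a higher inclusion level means more use of the upstream acceptor, which gives the longer exon. The sites that differed most are shown in the reference, with a few bases of intron before them and of exon after them. Capitals mark the dinucleotides of the upstream and of the downstream acceptor, in that order.
AT5G53010, chr5:21490781-21490865, minus strand: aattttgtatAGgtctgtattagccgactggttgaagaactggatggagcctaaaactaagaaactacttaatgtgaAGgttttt
CVP2, chr1:1607940-1607969, minus strand: tggtAGaaatggattggcttttgtcAGgtg
PRD3, chr1:250002-250022, plus strand: tttgtcacctAGtAGctcaga
SUVH3, chr1:27491741-27491752, plus strand: gtatAGcAGaga
NEF1, chr5:4294825-4294851, plus strand: tttcagtggtAGaatgtgcAGggagaa
MAF3, chr5:25990072-25990127, plus strand: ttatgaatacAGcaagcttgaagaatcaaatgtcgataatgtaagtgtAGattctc
CVP2 lies in the 3′ UTR and SUVH3 in the 5′ UTR of the annotated transcripts, and the others lie between the start and stop codon.

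AT5G53010, a gene annotated as a calcium-transporting ATPase, was the only event that split the accessions completely, with all libraries of one at or above 0.95 and all of the other at or below 0.05. The upstream acceptor, 67 bases before the other, was used at 0.0205, 0.0415 and 0 in Kn-0, against 0.971, 0.962 and 0.962 in Col-0. The difference was -0.944 (adjusted p = 5e-10, limma). The event had 32 to 35 reads per library in Kn-0 and 53 to 80 in Col-0.

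UPS2 (AT2G03530), a transporter of ureides, used an acceptor 49 bases upstream at 0.303, 0.355 and 0.379 in Kn-0, against 0.966, 0.905 and 0.869 in Col-0 (difference -0.568, adjusted p = 4.4e-09, limma). CVP2 (AT1G05470), a phosphatase of inositol phosphates that shapes cotyledon veins, moved the other way. Its upstream acceptor of 21 bases was used at 0.709, 0.774 and 0.706 in Kn-0, against 0.0204, 0 and 0.0282 in Col-0 (difference 0.713, adjusted p = 6e-10, limma). This longer form is not among the RefSeq transcripts. Neither gene's groups came near each other.

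Some differences concerned only a few bases. In PRD3 (AT1G01690), a gene of meiotic recombination, 2 acceptors lie 3 bases apart, and the upstream one was used at 0.0776, 0.190 and 0.0979 in Kn-0, against 0.534, 0.515 and 0.527 in Col-0 (difference -0.404, adjusted p = 6.4e-06, limma). In SUVH3 (AT1G73100), of a family of histone H3 lysine 9 methyltransferases, a 3-base choice went the other way, with 0.374, 0.429 and 0.397 in Kn-0, against 0.0483, 0.0396 and 0.0851 in Col-0 (difference 0.342, adjusted p = 5.8e-09, limma). In both, the printed sequence holds the acceptors as AG, 1 base and AG. NEF1 (AT5G13390), a gene of the pollen wall, used an acceptor 9 bases upstream at 0.0032, 0 and 0 in Kn-0, against 0.404, 0.337 and 0.383 in Col-0 (difference -0.373, adjusted p = 5.4e-08, limma). Of the 90 called 3′ sites, 8 had a spacing of 3 bases (8.89%), against 9.85% of all 4882 tested. The median spacing was 34 bases in called events and 16 in all tested.

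Other acceptor choices were also among the largest. Tic32-IVa (AT4G23430), a protein of the chloroplast import apparatus, used an acceptor 30 bases upstream at a level of 1 in all Kn-0 libraries, against 0.759, 0.772 and 0.767 in Col-0 (difference 0.234, adjusted p = 4.7e-09, limma). In Kn-0, 0 of 2862 junction reads had the downstream acceptor, which allows up to 0.105%. SDG40 (AT5G17240), a SET domain protein, had 0.345, 0.493 and 0.454 in Kn-0, against 0.114, 0.165 and 0.0125 in Col-0 (difference 0.333, adjusted p = 0.0014, limma). WNK9 (AT5G28080), a kinase of the WNK family, had 0.340, 0.716 and 0.536 in Kn-0, against 0.951, 0.825 and 0.925 in Col-0 (difference -0.370, adjusted p = 0.03, limma). WNK9 had 15 to 20 reads per library in Kn-0, lost its call without library 1 or 3 of either accession (adjusted p of 0.092 to 0.23), and differed by only -0.0638 in the ABA libraries.

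At alternative 5′ sites a higher level means more use of the downstream donor. FZL (AT1G03160), a dynamin-like protein of chloroplast membranes, used a donor 100 bases downstream at 0.150, 0.0647 and 0.110 in Kn-0, against 0.75, 0.839 and 0.762 in Col-0 (difference -0.676, adjusted p = 1.6e-08, limma). Its reads averaged 26 per library in Kn-0 and 153 in Col-0. CYSC1 (AT3G61440), a mitochondrial enzyme that detoxifies cyanide, used a donor 138 bases downstream at 0.892, 0.939 and 0.911 in Kn-0, against 0.339, 0.259 and 0.253 in Col-0 (difference 0.630, adjusted p = 8.2e-05, limma). The intron behind that donor begins with AG and not GT in the Col-0 reference, which sets it apart from the other 35 called 5′ sites, where both donors read GT or GC.

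QQT2 (AT4G21800), a nucleotide-binding protein needed for early embryo divisions, used a donor 74 bases downstream in its 5′ UTR at 0.293, 0.390 and 0.344 in Kn-0, against 0, 0.016 and 0 in Col-0 (difference 0.337, adjusted p = 6.9e-09, limma). RPL34 (AT1G69620), a ribosomal protein, had 1, 0.986 and 0.993 in Kn-0, against 0.663, 0.663 and 0.688 in Col-0 (difference 0.321, adjusted p = 7.4e-08, limma). The annotation has another gene on the same strand there, so the source of its reads is uncertain. LOG8 (AT5G11950), of a family of cytokinin-activating enzymes, had 0.819, 0.840 and 0.820 in Kn-0, against 0.939, 0.966 and 0.936 in Col-0 (difference -0.121, adjusted p = 0.022, limma). The LOG8 groups did not overlap, but the call was lost without any 1 Kn-0 library or without Col-0 library 1 or 2 (adjusted p of 0.057 to 0.11). Neither form of the RPL34 event or of the LOG8 event is annotated in RefSeq.

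Among skipped exons the largest differences in genes with a symbol were small. SCA3 (AT2G24120), the RNA polymerase of plastids that the nucleus encodes, kept a 49-base exon at a level of 1 in all Kn-0 libraries, against 0.848, 0.827 and 0.834 in Col-0 (difference 0.164, adjusted p = 0.00047, limma). No skipping read was seen among 329 in Kn-0, which allows up to 0.912%, and the call was lost under both added dispersion models (adjusted p of 0.13 and 0.16). KAT5 (AT5G48880), a thiolase of fatty acid breakdown, included a 107-base exon at 0.487, 0.465 and 0.418 in Kn-0, against 0.313, 0.303 and 0.358 in Col-0 (difference 0.132, adjusted p = 0.00023, limma). NTH2 (AT1G05900), a DNA repair glycosylase, had 0.626, 0.636 and 0.578 in Kn-0, against 0.797, 0.700 and 0.815 in Col-0 (difference -0.158, adjusted p = 0.038, limma). The NTH2 call was lost without any 1 Kn-0 library or without Col-0 library 1 or 3 (adjusted p of 0.075 to 0.20). Neither form of the SCA3 event or of the NTH2 event is annotated in RefSeq.

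**Figure D3:**
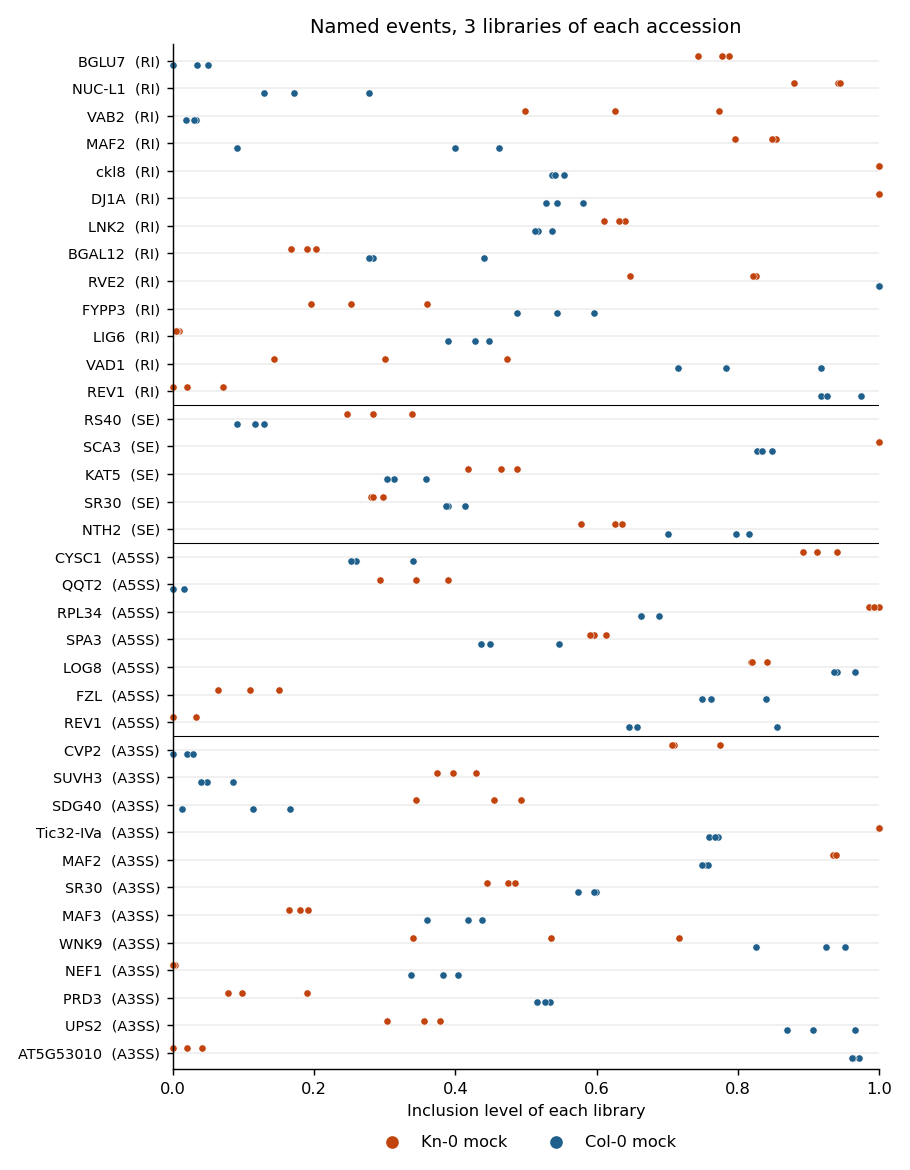
Inclusion level of each library (points; 3 Kn-0 mock libraries above, 3 Col-0 mock libraries below in each row) for named events, 1 per gene and type, ordered by difference within retained introns (RI), skipped exons (SE), alternative 5′ sites (A5SS) and alternative 3′ sites (A3SS). The groups stand apart in every row, from AT5G53010, where Kn-0 is near 0 and Col-0 near 1, to LNK2 and SR30, where they differ by about 0.1.

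Of 8 tested flowering-time genes, 2 had called events, MAF2 and MAF3, against 197 of 5690 genes overall (3.46%). MAF2 (AGL31, AT5G65050) and MAF3 (AT5G65060) are neighbouring MADS-box repressors of flowering from the family of FLC, and as similar neighbours they can share reads, so the assignment of reads between them is uncertain. In MAF2 the 86-base intron printed above was retained at 0.893, 0.894 and 0.911 in Kn-0, against 0.600, 0.537 and 0.588 in Col-0. The difference was 0.325 (adjusted p = 4.5e-17, limma), from a mean of 844 reads per library. Both accessions kept the intron in most transcripts, and Kn-0 kept it in nearly all.

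A second MAF2 intron, of 93 bases, was retained at 0.854, 0.848 and 0.796 in Kn-0, against 0.0916, 0.400 and 0.462 in Col-0 (difference 0.515, adjusted p = 4.2e-05, limma). Col-0 had only 13 to 20 reads per library there, against 258 to 311 in Kn-0. A 198-base intron that contains the 93-base one was also called (difference 0.144, adjusted p = 0.0061, limma). It had 256 to 302 reads per library in Kn-0 and 11 to 19 in Col-0. In the 198-base intron the groups overlapped, since 1 Col-0 library stood at 1, and the call was lost without Col-0 library 1 or 3 (0.136 and 0.0763). Neither form of these 2 events is annotated in RefSeq, and the part of the unequal reads in them was not tested. MAF2 further used an acceptor 22 bases upstream at 0.934, 0.935 and 0.939 in Kn-0, against 0.755, 0.757 and 0.749 in Col-0 (difference 0.182, adjusted p = 0.0011, limma).

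MAF3 differed at acceptors of 1 intron. Use of the acceptor 38 bases upstream, printed above, was 0.181, 0.164 and 0.192 in Kn-0, against 0.418, 0.437 and 0.360 in Col-0 (difference -0.226, adjusted p = 2.6e-08, limma). A second acceptor 5 bases upstream of the same downstream site gave a difference of -0.111 (adjusted p = 0.0034), which was lost without Col-0 library 1 or 2 (-0.0975 and -0.0904). The main MAF3 event had 975 to 1093 reads per library in Kn-0 and 122 to 144 in Col-0.

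Of 16 tested SR splicing factors, 2 had called events, against 3.46% of all tested genes, and they moved in opposite directions. RS40 (AT4G25500) included an exon of 199 bases at 0.339, 0.247 and 0.283 in Kn-0, against 0.0913, 0.129 and 0.117 in Col-0 (difference 0.177, adjusted p = 8e-10, limma). Its 4 called events share the end of that exon and are versions of 1 choice. Of these versions, only an exon of 257 bases is included in a RefSeq transcript. SR30 (AT1G09140) included an exon of 122 bases at 0.281, 0.298 and 0.284 in Kn-0, against 0.390, 0.387 and 0.414 in Col-0 (difference -0.109, adjusted p = 0.00014, limma). Its 6 called events, 5 versions of the exon and 1 acceptor 338 bases upstream, share 1 exon border, and the acceptor differed by -0.122 (adjusted p = 1.3e-05). The acceptor is annotated, but no RefSeq transcript includes any of the 5 exon versions. These versions have nearly the same reads, so the length of the exon is not settled. All 6 were close to the minimum difference of 0.1, and 2 of the exon versions fell just below it without Col-0 library 3 (-0.0996 and -0.0990). RS2Z32, RS2Z33, SCL30A and SR45 had events at an adjusted p under 0.05 whose difference was below 0.1. Of 16 other tested spliceosome and RNA-binding proteins on the list, 0 had a called event, against 3.46% of all tested genes. The list is not complete. AT2G29210, annotated as a splicing factor, and LSM6B (AT2G43810), annotated as a small nuclear ribonucleoprotein, lay outside it and had called events. So did RRC1 (AT5G25060) and AT5G10800, both annotated with an RNA recognition motif. Of the 4 nonsense-mediated decay factors 0 had a called event, with UPF1 alone passing the adjusted p without the size.

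The lists of clock and light signalling genes held 3 called genes. In LNK2 (AT3G54500), a coactivator of clock and light-regulated genes, a 136-base intron of the 5′ UTR was retained at 0.610, 0.640 and 0.631 in Kn-0, against 0.536, 0.517 and 0.512 in Col-0 (difference 0.105, adjusted p = 2.9e-05, limma). The groups did not overlap, but the difference fell to 0.0986 without Kn-0 library 2, under the minimum. RVE2 (AT5G37260), a MYB-like clock transcription factor, had an 89-base intron retained at 0.647, 0.825 and 0.821 in Kn-0, against 1 in every Col-0 library (difference -0.235, adjusted p = 0.004, limma). In Col-0 0 of 163 reads were spliced, which allows up to 1.84%. Neither form of the RVE2 event is annotated in RefSeq. The call was lost without Kn-0 library 1 (-0.177, adjusted p = 0.051) and under all 3 alternative models (adjusted p of 0.083 to 0.35). These were 2 of 16 tested clock genes, against 3.46% of all tested genes. Of 9 tested light signalling genes on the list 1 was called, SPA3 (AT3G15354), a partner of the ubiquitin ligase COP1, against the same 3.46%. FYPP3, annotated as phytochrome-associated and called above, was not on the list.

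SPA3 has donors 18 bases apart in the reference, of which the upstream one begins with GC and the downstream one with GT, shown in capitals.
SPA3, chr3:5170164-5170195, minus strand: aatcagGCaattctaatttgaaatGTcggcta
The downstream donor was used at 0.612, 0.596 and 0.591 in Kn-0, against 0.436, 0.547 and 0.448 in Col-0 (difference 0.122, adjusted p = 0.0032, limma). Without Col-0 library 1 the call was lost (0.102, adjusted p = 0.053). Of 8 tested ABA signalling genes and 1 tested immune receptor on the lists, 0 had a called event or an adjusted p under 0.05. DWA1 (AT2G19430), annotated as hypersensitive to ABA, was not listed. It had 3 of 9 tested events called, 2 higher and 1 lower in Kn-0 (differences of -0.147 to 0.148). All 3 were also called in the ABA libraries. Of 17 tested genes whose alternative splicing is well known, 3 had a called event, MAF2, SPA3 and SR30. These counts stand beside 3.46% of all tested genes with a called event. The median absolute difference was 0.0311 over events of the well known genes and 0.0289 over flowering-time events, against 0.0138 over all tested events. Tested events numbered 64 in the 17 well known genes, 35 in the 8 flowering-time genes and 71 in the 16 SR factors. They numbered 66 in the 16 clock genes and 10 in the 8 ABA signalling genes, against 15959 in all 5690 genes. The part of event number per gene in the shares called was not tested.

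**Figure D4:**
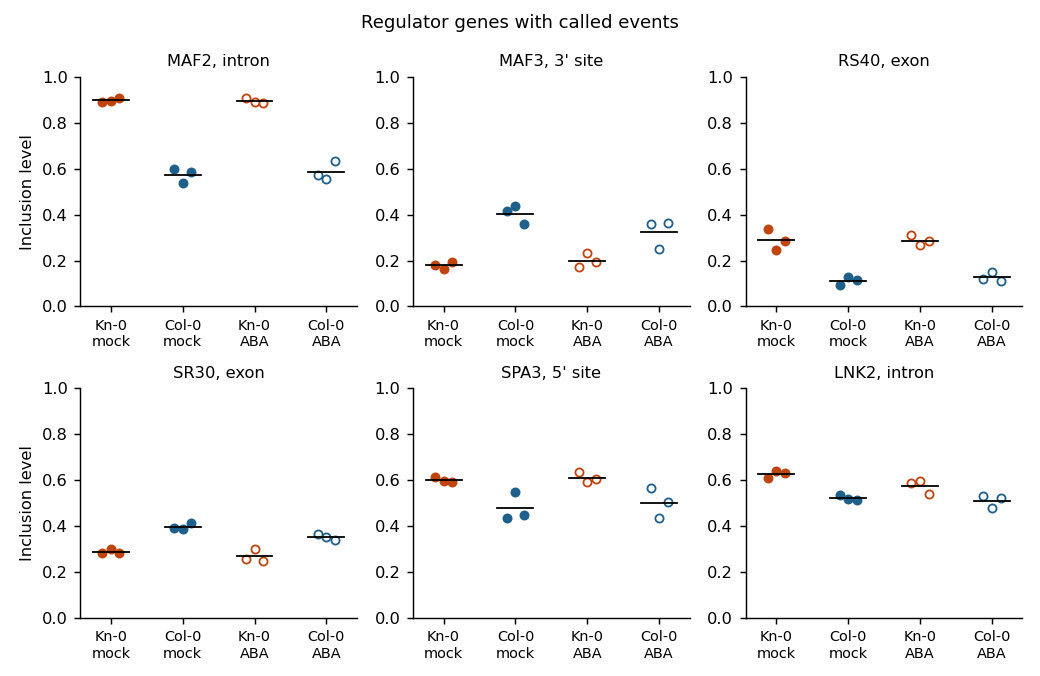
Inclusion level in each library (points, with the mean as a line) for 1 event of MAF2, MAF3, RS40, SR30, SPA3 and LNK2 in Kn-0 mock, Col-0 mock, Kn-0 ABA and Col-0 ABA (open points for ABA). In MAF2 the Kn-0 libraries sit at 0.886 to 0.911 in both treatments, above all Col-0 libraries.

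The form that was more common in Kn-0 was less often an annotated one. Of the 281 called events, the form favoured in Kn-0 occurs in a RefSeq transcript in 86 (30.6%) and the form favoured in Col-0 in 195 (69.4%). Both forms were annotated in 50, only the Kn-0 form in 36, only the Col-0 form in 145 and neither in 50. The annotation describes Col-0, so this count does not treat the accessions alike. Retention is annotated in 8.73% and splicing in 77.7% of all tested introns. Of the 92 introns kept more in Kn-0, the retained form is annotated in 9 and the spliced form in 75. Of the 24 kept less, the spliced form, favoured in Kn-0, is annotated in 17 and the retained form in 5. The part of the 92 to 24 split of introns in the count was not tested. Of the 77 called introns whose reading frame the annotation gives, 64 hold an in-frame stop codon when retained (83.1%), against 87.2% of all such introns tested. Called introns had a median length of 97 bases, against 95 for all tested. Both end dinucleotides were GT and AG in 115 of 116 called introns, and the exception, ATXRCC1, begins with GC.

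Called events more often had unequal read totals. In 23 of the 281 (8.19%) the mean junction reads of the accessions differed at least 3-fold, against 111 of all 15959 tested events (0.696%), and 10 of the 92 introns kept more in Kn-0 had at least 3 times as many reads in Kn-0. Read totals depend on expression and on how reads of each accession were aligned, and their part in the calls was not tested. With the 111 events left out, an alternative chosen after seeing the data, 256 events were called (1.62%), 155 higher and 101 lower in Kn-0, with retained introns at 79 and 21.

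The same accession contrast was then read in the ABA libraries, which share no sample with the mock libraries. Of the 281 called mock events, 274 could be tested there, 272 differed in the same direction and 187 (68.2%) were themselves called, against 251 of 16128 events called in the ABA libraries overall (1.56%). The median absolute difference of the called events was 0.174 in mock and 0.154 in ABA. The 2 events in the opposite direction had ABA differences of 0.000517 (AT1G10050) and 0.00143 (RRC1, an alternative 5′ site). Of the 47 named events, 45 could be tested and all 45 had the same direction, 30 of them called. For example, the MAF2 intron of 86 bases averaged 0.895 ± 0.0126 in Kn-0 ABA and 0.587 ± 0.0423 in Col-0 ABA (SD, n = 3 each), and REV1 differed by -0.897 there. FZL and VAD1 had too few reads in the ABA libraries. Whether the difference between accessions itself changed with ABA was not tested.

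**Figure D5:**
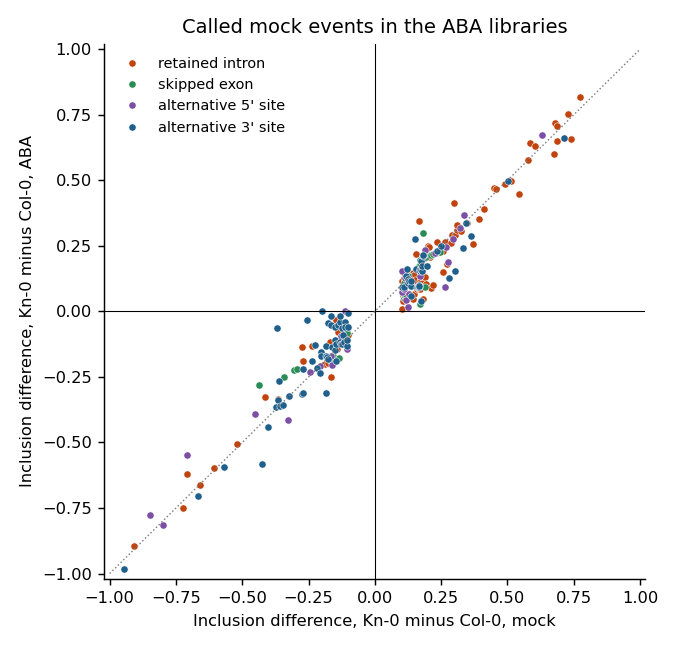
Inclusion difference, Kn-0 minus Col-0, in mock (horizontal axis) and in ABA libraries (vertical axis) for the 274 called mock events that could be tested in both, coloured by type. All but 2 points lie in the quadrants of equal sign; the dotted line marks equal differences, and some points lie far from it, such as WNK9 at -0.370 in mock and -0.0638 in ABA.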

How the data were processed

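Per the labels, polyadenylated RNA of whole seedlings was sequenced, and the tools listed in the submitters' processing notes are DESeq2, featureCounts and STAR, with TAIR10 as the build. The deposited splicing tables carry the header of rMATS junction-read tables, with the version not given in the sources used here. They hold the authors' inclusion and skipping junction counts and inclusion levels (a fraction per library) with 3 libraries in 1 cell. The first group of each table is mock and the second ABA, per the labels' description of the tables. As a check, junction reads of ABI1, ABI2, HAB1, HAB2 and PP2CA, genes known to be raised by ABA, were 2.08 to 9.66 times as many in the second group.

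Commas between the 3 values were often lost. In mock cells 76444 Kn-0 and 81532 Col-0 events were intact, 81342 and 75682 were split where 1 division of the digits met the authors' levels within 0.0005, and 38246 and 35068, whose levels are all 0 or 1, by the most even division, which was right in 318970 of 318970 cells where it could be checked. The remaining 117 and 104 were left out. Because the deposited cells are not single counts and many had to be reconstructed, the planned edgeR test was not run. Its stated fallback was limma on log-odds of the inclusion levels. The fit used departs from this, as limma 3.58.1 in R 4.3.3 took log2 odds of the recovered junction counts. It had 0.5 added to each count, a variance trend on the expected binomial variance and robust moderation. Events needed at least 10 reads in each of 6 libraries. Python 3.11.15 scripts paired events on 6 boundaries, and 2 events with keys that were not unique were dropped. Tested on simulated data with the same dispersion of 1.51 for all 15959 events, 28%, 77.5% and 92.5% of differences of 0.1, 0.2 and 0.3 were called, with 0.503% of calls false. The simulated differences always moved towards a level of 0.5 and were taken on read shares without the length correction. Dispersion varies between real events, so these figures need not hold for the calls made here. Between libraries of a group, chi-square over its degrees of freedom was 1.83 to 3.63, so no library was a duplicate of another.

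Named events were those with at least 20 reads on average, 1 per gene with a RefSeq symbol, with the largest differences in each direction (6 introns, 4 acceptors, 3 donors, 3 exons), plus every call in the 9 gene lists and complete splits. Members, lists and tests were chosen with earlier results of these data known. The gene lists are not complete, and their counts cover the listed genes only. All 5690 tested genes were in RefSeq and 2807 had a symbol. Gene-level tables were not used.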

Additional observations from a re-analysis of the deposited data

How the results depend on the processing

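Of 281 calls, 253 to 281 were also called with 20 reads, a mean of 10 reads, no inclusion filter, adjustment within event type, precision weights, Pearson dispersion, no overlap with another gene, no evenly divided digits or totals within 3-fold, and 229 with the larger of 2 dispersions; the last 6 were chosen after seeing the data. With a difference of at least 0.2 there were 110 calls (61 higher, 49 lower, 90 genes; introns 40 and 14), with no minimum 665 (441, 224, 460 genes; introns 239 and 65), with intact separators alone 101 of 6494 events (60, 41, 89 genes; introns 37 and 12), and with 1 event per gene 91 (55, 36, 91 genes; introns 33 and 9); these test fewer events or another size. Leaving out 1 mock library gave 225 to 261 calls (139 to 159 higher, 82 to 102 lower, 151 to 184 genes; introns 75 to 87 and 18 to 21), and leaving out 1 ABA library 154 to 167 shared calls and 269 to 274 of the same direction. Median differences at 20 reads were 0.00428 for introns, -0.0123 for exons, 0.00474 for 5′ sites and -0.00769 for 3′ sites. Without the inclusion filter they were 0.00231, 0.0000858, 0.000152 and -0.000688, and the cause was not tested. Without 1 library they ran from 0.00488 to 0.00595 for introns, -0.0204 to -0.00131 for exons, -0.0154 to -0.000605 for 5′ sites and -0.0173 to -0.0115 for 3′ sites. No named event changed direction. No paired analysis was possible because the cells carry no replicate numbers. The planned edgeR fit and a DESeq2 alternative were not run on the reconstructed counts. Of simulated differences of 0.1 in uncorrected read share, 49% passed the adjusted p and 28% were called, the rest of those that passed falling under the minimum size.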

Other observations

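Some genes outside the naming rule had differences as large as those described, and were chosen after their values were seen. AT1G31500, annotated as a DNase I-like protein, kept a 144-base intron at 0.803, 0.731 and 0.829 in Kn-0, against 0.0134, 0.0109 and 0.0213 in Col-0, the largest gain of retention in Kn-0 (0.773). Its junction reads averaged 59 per library in Kn-0 and 285 in Col-0, and the part of this in the result was not tested. AT1G05870, a gene of unknown function, moved the other way, with a 214-base intron retained at 0.0951, 0.124 and 0.117 in Kn-0, against 0.801, 0.749 and 0.761 in Col-0. It also used a donor 47 bases downstream at 0.0783, 0.0527 and 0.0551 in Kn-0, against 0.876, 0.843 and 0.861 in Col-0. Whether both events share reads was not checked. AT5G61190, annotated with a zinc finger domain, had acceptors 3 bases apart and used the upstream one at 0.0469, 0.0528 and 0.0797 in Kn-0, against 0.727, 0.769 and 0.689 in Col-0.

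The genes with most called events were AT2G45380, annotated as a myeloid leukemia factor, with 8 of 22 tested, and CA2 (AT5G14740), a carbonic anhydrase, with 7 of 11, all higher in Kn-0. Many of these events have nearly the same read totals within their gene and type. They may be versions of the same choice, which was not checked, and not separate differences. In CA2 the differences were 0.114 to 0.167 in mock and 0.0579 to 0.0998 in ABA libraries, where 0 were called. GLT1 (AT5G53460), a glutamate synthase, had 4 of 15 called with differences of 0.175 to 0.296, and all 4 were called in ABA. MKP2 (AT3G06110), a phosphatase of MAP kinases, had 3 of 3 called, all lower in Kn-0, by -0.356 to -0.163.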
